A study of Homo sapiens with 22 samples.

Results

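The data covered here were transposon insertions in and around MYC and PVT1 on human chromosome 8, in a window of 2.3 Mb (hg38, chr8:127500001-129800001) that runs from upstream of MYC, through PVT1 and the long stretch downstream of it, to GSDMC. The members were 2 of the 27 annotated genes that overlap the window, MYC and PVT1, and their surroundings were described in 230 bins of 10 kb, of 293434 such bins with a TTAA site in the genome. Insertions were taken by position alone. They came from K562, an established human erythroleukemia line, that had received a self-reporting piggyBac transposon together with 1 of 2 helper plasmids, hyPBase (10 libraries) or hyPBase-centrip (10 libraries), neither of them fused to a transcription factor. All 20 libraries were selected with puromycin for 11 days, and transfections were pooled in threes before the RNA was taken. The labels do not say what the libraries of a helper share, so every p-value below measures the spread between these libraries, which may be partly technical. The other 2 of the 22 samples carry no helper group in the labels and entered no comparison.

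MYC encodes a transcription factor that drives growth and division in many cell types and is among the most often deregulated genes in cancer. It lies in a gene-poor region, next to the long noncoding RNA gene PVT1, and in blood cells much of its control comes from enhancers inside PVT1 and from a cluster of enhancers far downstream. The piggyBac transposase inserts at TTAA tetranucleotides, and the transposon it leaves there marks the place in the genome. The orientation of an insertion says which way the transposon points, plus or minus on the chromosome, and is not a measure of the strand that is transcribed.

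The 20 libraries held 52121915 insertions on chromosomes 1 to 22, X and Y, from 1508711 to 3594616 in a library, and 170849 of them lay in the window. Among genes that check the cell line, 8 erythroid genes stood between 0.614 (GATA1, with 3 TTAA sites) and 30.7 (KLF1, with 5) times the genome mean per TTAA site, with TAL1 and LMO2 at 10.9 and 14.7, and the lymphoid genes PAX5, CD79A and CD3E at 0.679, 0.516 and 1.29. CDKN2A, which K562 cells have lost, held 1 insertion in 220 TTAA sites. DNA copy number, gene expression and chromatin marks were not measured in these samples, so their part in the densities below was not tested.

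The window as a whole was dense. Density is given throughout as enrichment, the share of a library's insertions that fell in a region divided by the region's share of the genome's TTAA sites, so that 1 is the genome mean. The hyPBase libraries put the window at 4.44 ± 0.127 (SD, n = 10), the hyPBase-centrip libraries at 4.37 ± 0.187 (SD, n = 10), and its lowest library, at 4.15, was still more than 4 times the genome mean. Chromosome 8 as a whole was at 0.911, and the stretches of 2.3 Mb before and after the window were at 0.933 and 0.849. Among 28670 windows of this length placed along the genome in steps of 100 kb, the MYC window stood at percentile 99.68, against a median of 0.932 and a highest value of 6.13. Of its 14388 TTAA sites, 76.5% were hit in at least 1 library, against 47.7% in the genome. Sites hit in all 20 libraries made up 3.51% of its sites and 0.428% of those in the genome.

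**Figure D1:**
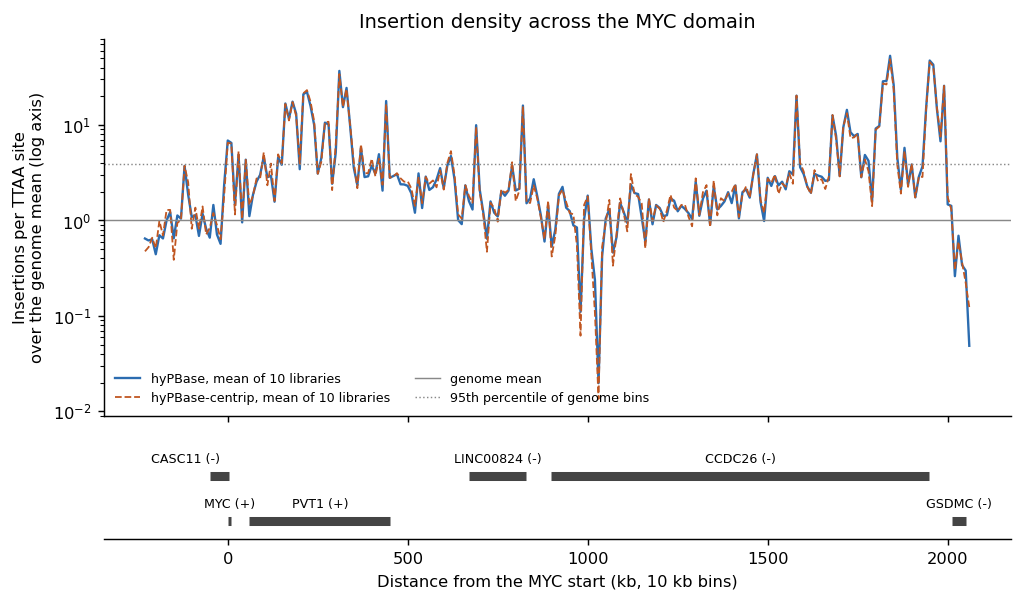
Enrichment in 10 kb bins (insertions per TTAA site over the genome mean, log axis) against distance from the MYC start in kb, as the mean of 10 hyPBase libraries (solid) and of 10 hyPBase-centrip libraries (dashed), with the genes and their strands drawn below. The line for the genome mean is at 1 and the dotted line, the 95th percentile of genome bins, at 3.89, and both helpers trace the same peaks over MYC, inside PVT1 and near the 5′ end of CCDC26.

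MYC itself was a dense gene. Its body, chr8:127735434-127742951 on the plus strand, holds 46 TTAA sites, 39 of which were hit. A hyPBase library had 14 to 47 insertions there, with a median of 30.5, and a hyPBase-centrip library 17 to 48, with a median of 33. The ranges of the helpers overlap almost completely. The hyPBase libraries averaged an enrichment of 5.43 ± 1.18 (SD, n = 10), the hyPBase-centrip libraries one of 5.01 ± 0.723 (SD, n = 10), and the pooled value, 5.29, was at percentile 95.2 of 17547 protein-coding genes with at least 10 TTAA sites. The 1 kb on each side of the MYC start held 268 insertions in 9 sites, an enrichment of 11.0, and the 5 kb on each side 978 insertions in 54 sites, an enrichment of 6.68. Exons of all annotated MYC transcripts together, which make up most of the gene, stood at 5.98 with 35 sites. What was left as introns stood at 3.08, with 92 insertions in 11 sites. The coding sequences of all annotated MYC transcripts together contain 3 sites, all of them hit, with 129 insertions.

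PVT1, chr8:127794526-128187101 on the plus strand, was denser than MYC when every barcode was counted. Its 1676 TTAA sites received 39093 insertions, 22.9% of the insertions of the window. A hyPBase library had 1218 to 2132 insertions in the gene, with a median of 1876, and a hyPBase-centrip library 1435 to 2494, with a median of 2085. Enrichment was 8.66 ± 0.386 (SD, n = 10) and 8.70 ± 0.623 (SD, n = 10), so that the lowest library for PVT1, at 7.94, lay above the highest for MYC, at 7.15. Among 13279 lncRNA genes with at least 10 TTAA sites, PVT1 stood at percentile 96.6. TTAA sites were sparse in it, 4.27 per kb against 6.26 over the window.

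The PVT1 promoter was not where its insertions lay. The 5 kb on each side of the PVT1 start held 110 insertions in 31 sites, an enrichment of 1.31, and the 1 kb on each side 18 insertions in 3 sites. Counted from the 5′ end in stretches of equal length, PVT1 stood at 3.64, 13.2, 13.1 and 5.04. Exons of all annotated PVT1 transcripts together had an enrichment of 15.6 (4686 insertions in 111 sites) and introns 8.10 (34407 insertions in 1565 sites). The densest PVT1 bin, chr8:128040001-128050000, lay 310 kb from the MYC start and reached 36.9 ± 2.52 (SD, n = 10) under hyPBase, 34.2 ± 3.85 (SD, n = 10) under hyPBase-centrip. MIR1207 lies in this bin. Of the 5 miRNA genes inside PVT1, MIR1204, MIR1205 and MIR1208 contain no TTAA site, and MIR1206 and MIR1207 contain 1 each, with 36 and 32 insertions. LINC02912, a short lncRNA gene on the minus strand within PVT1, had 1114 insertions in 10 sites.

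These densities count an insertion once for each position, orientation and barcode, the short tag that the files give with each insertion. So do the values of single bins, stretches and sites below. What a barcode stands for is not stated in the sources used here. A library had 21 to 23 different barcodes in the window, so that a TTAA site could be counted at most 44 times in a library with 22. Collapsing the barcodes lowered the enrichment of PVT1 from 8.68 over all 20 libraries to 5.30, since each position and orientation of PVT1 was counted 2.38 times on average against 1.45 times in the genome. MYC, at 1.58, moved from 5.22 to 4.85. The mean of PVT1 stayed above that of MYC. The gap that was left was smaller than the spread of MYC between single libraries (SD 0.691 over 20 libraries), and it was not tested. Insertions in PVT1 also carried more reads, 4.53 per insertion against 2.61 in MYC.

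Between MYC and PVT1 the density was 3.40, and upstream of MYC 1.23, the lowest value of any segment. Downstream, the stretch from the end of PVT1 to the start of CCDC26 held 19867 insertions in 2969 sites. Its enrichment was 2.46 ± 0.0809 (SD, n = 10) under hyPBase, 2.49 ± 0.0813 (SD, n = 10) under hyPBase-centrip, so that every library was above the genome mean and below every library's value for MYC or PVT1. CCDC26, a long noncoding RNA gene on the minus strand that spans chr8:128634199-129683770, held 84650 insertions, 49.5% of those in the window, at 4.27 ± 0.112 (SD, n = 10) and 4.11 ± 0.147 (SD, n = 10). Beyond its 5′ end, up to GSDMC, the enrichment was 18.4 over 400 sites.

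**Figure D2:**
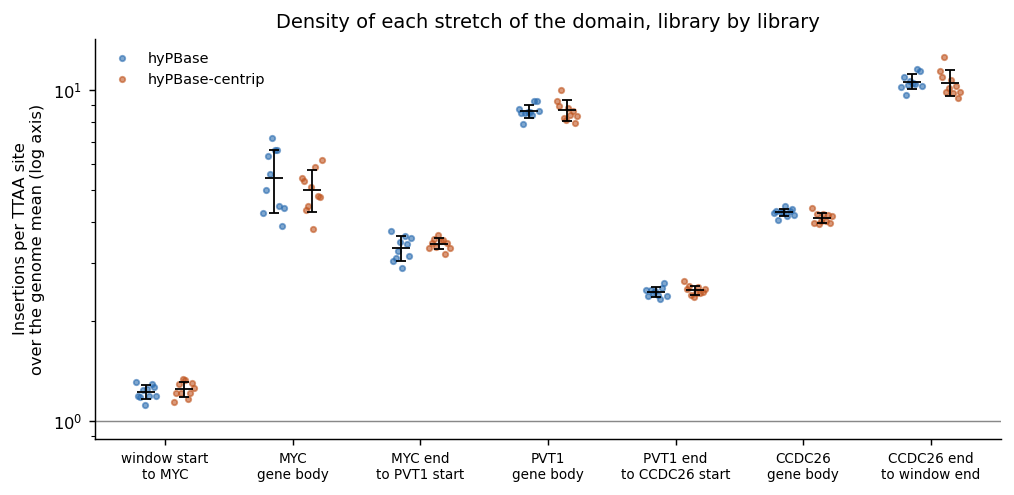
Enrichment (insertions per TTAA site over the genome mean, log axis) of 7 consecutive segments of the window in every library, with 1 point for each library, hyPBase on the left and hyPBase-centrip on the right of each pair, and the bars giving the mean and SD of 10 libraries. Every segment lies above the genome mean of 1, the points for MYC spread most, and the segment after CCDC26 and PVT1 are the densest.

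The gradient within CCDC26 was steep. In stretches of equal length from its 3′ end, nearest to PVT1, to its 5′ end, nearest to GSDMC, the enrichment was 1.15, 1.52, 3.88 and 10.6. The 5 kb on each side of the CCDC26 start held 7399 insertions in 59 sites, an enrichment of 46.2. The other lncRNA genes of the window with over 50 TTAA sites were ENSG00000286266 and CASC11 upstream, at 1.63 and 2.25, ENSG00000286034 and LINC00824 downstream of PVT1, at 2.72 and 2.90, ENSG00000253926 inside CCDC26, at 7.56, and ENSG00000285108 at the 5′ end of CCDC26, at 25.9. GSDMC, a gasdermin family gene and the only other protein-coding gene, was at 0.454, at percentile 16.1 of protein-coding genes. The remaining 18 of the 27 annotated genes, MYC among them, have 50 TTAA sites or fewer.

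The 5 bins with the most insertions together held 21.1% of the insertions of the window, and 23 of the 230 bins held 50%. By density per TTAA site, the first was chr8:129570001-129580000 in CCDC26, 1840 kb from the MYC start, with 9720 insertions in 71 sites. Its enrichment was 53.1 ± 2.28 (SD, n = 10) under hyPBase, 49.0 ± 3.77 (SD, n = 10) under hyPBase-centrip, from 45.3 to 57.0 in single libraries. The next were chr8:129680001-129690000 at 45.9 and chr8:129690001-129700000 at 41.5, at the 5′ end of CCDC26 and in ENSG00000285108, then the PVT1 bin at 35.0 and chr8:129550001-129560000 in CCDC26 at 27.8. They stood between percentiles 99.906 and 99.992 of the 289323 genome bins with at least 10 TTAA sites.

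The emptiest bins were few, and most of those listed here lay next to another. The lowest, chr8:128760001-128770000 in the 3′ part of CCDC26, had 2 insertions in 55 sites over all 20 libraries. It was followed by the last bin of the window with 12 insertions, chr8:128710001-128720000 with 11, chr8:128750001-128760000 with 31 and chr8:129780001-129790000 with 46, in 57, 46, 68 and 64 sites. The drop toward GSDMC was abrupt. The bin chr8:129720001-129730000 was at 25.5, the bin after it at 1.61, and the first bin that lies wholly within GSDMC, chr8:129750001-129760000, at 0.291. In all, 12 bins were below the genome median of 0.509, and 56 were at or above the genome's 95th percentile.

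Where density was concentrated was first described in the hyPBase libraries, and the hyPBase-centrip libraries, which had no part in the choice, were then read in the same places. Bins at or above the 95th percentile of the genome in hyPBase, an enrichment of 3.87, were joined where they touched. This gave 24 stretches from 54 bins. The lowest bin inside was at 3.90 and the highest outside at 3.80. In the hyPBase-centrip libraries 51 of the 54 bins were at or above their own 95th percentile, and the stretches held 67.5% of the window's insertions in 20.9% of its TTAA sites.

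The stretches fell into a group over MYC, a group inside PVT1, a few isolated ones and a distal group. The MYC stretch, chr8:127730001-127750000, was at 6.69 ± 0.682 (SD, n = 10) under hyPBase, 6.46 ± 0.624 (SD, n = 10) under hyPBase-centrip. Inside PVT1 the strongest were chr8:128030001-128080000, at 19.3 ± 0.625 and 18.8 ± 1.57 (SD, n = 10 each), chr8:127940001-127980000, at 17.6 ± 1.12 and 18.5 ± 1.84 (SD, n = 10 each), and chr8:128170001-128180000 near the 3′ end, at 17.8 ± 1.88 and 16.7 ± 2.88 (SD, n = 10 each). PVT1 contained 21 of the 54 bins. In all 10 hyPBase-centrip libraries these 4 stretches lay above the 3.87 that had chosen them. The exceptions among the 24 stretches were weaker ones. Those at chr8:127870001-127880000 in PVT1 and chr8:129200001-129210000 in CCDC26 were above it in 9 of 10 libraries, chr8:129630001-129640000 in CCDC26 in 8, chr8:128150001-128160000 in PVT1 in 7 and chr8:129500001-129520000 in CCDC26 in 5.

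Between PVT1 and the distal group, LINC00824 contained 2 stretches of a single bin each. The first, chr8:128420001-128430000, was at 9.95 ± 1.28 under hyPBase, 9.53 ± 1.74 under hyPBase-centrip (SD, n = 10 each). The second, chr8:128550001-128560000, was at 16.0 ± 1.14 and 15.7 ± 1.49 (SD, n = 10 each). In CCDC26 the bin chr8:129310001-129320000 stood alone at 20.3 ± 1.60 and 20.3 ± 1.70 (SD, n = 10 each). The distal group began 1675 kb downstream of the MYC start. Its main stretches were chr8:129530001-129600000, with 29998 insertions and an enrichment of 24.0 ± 1.12 and 22.2 ± 1.09 (SD, n = 10 each), and chr8:129670001-129730000, with 24011 insertions and 26.2 ± 1.54 and 25.8 ± 2.49 (SD, n = 10 each). These stretches together took a larger part of the window's insertions than all of PVT1, 17.6% and 14.1%. Their insertion counts and these shares are over all 20 libraries, including those that made the choice.

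Single TTAA sites were counted again and again. The site with the most insertions, chr8:129574215-129574218 in CCDC26, had 702, from 29 to 38 in a library, close to the 44 that barcodes allow. The next, chr8:129574698-129574701, lay in the same 1 kb and had 619. The others among the 5 fullest were chr8:128428188-128428191 in LINC00824 with 610, chr8:128061661-128061664 in PVT1 with 565 and chr8:129726017-129726020, outside any listed gene, with 561. Each was hit in all 20 libraries and in both orientations, the plus orientation taking 37.9% to 60.9%. The median count of 17 window sites was at least 22 in a library, and those sites held 5.17% of the insertions. At them the count may lie below the number of events. If barcodes do not mark separate events, the count may instead lie above it, which was not tested. The bases beside the TTAA moved with the counts as well. Window sites with a T before and an A after it held 17.4 insertions each and sites with neither 8.88, a ratio of 1.96, against 2.52 in the genome, a difference that was not tested.

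The orientation of insertions was far from even along PVT1. Over the whole gene 36.4% of insertions pointed the way PVT1 is transcribed. The share was 35.6% ± 0.924 (SD, n = 10) for hyPBase, from 34.5% to 37.3%, and 37.2% ± 1.23 (SD, n = 10) with hyPBase-centrip, from 35.5% to 39.1%. No library reached 50%, and an exact two-sided sign-flip permutation test over the 10 libraries of a helper gave p = 0.00195 for each helper, the smallest it can give. A deficit of this kind was common. Among insertions inside protein-coding genes of 1 strand only, pooled within a library, the same-strand share was 32.6% ± 0.425 (SD, n = 10) and 33.8% ± 0.271 (SD, n = 10). PVT1 was above this pooled share in 10 of 10 libraries of each helper, by 3.02 and 3.33 percentage points on average. In the pool, genes with more insertions weigh more. Against the median of all genes tested, lncRNA genes and overlapping genes included, the order was reversed. The log2 ratio of same to opposite strand was -0.81 for PVT1, and its median over 20309 genes tested was -0.57. The set of genes as well as the weighting differs between the pool and this median. Which of these differences reverses the order was not tested.

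Along the gene the deficit faded. Same-strand insertions made up 19.6% ± 1.24, 30.7% ± 1.95, 38.3% ± 1.68 and 48.3% ± 1.68 (SD, n = 10) of the hyPBase insertions in successive stretches of equal length from the 5′ end, and 21.2% ± 2.66, 32.0% ± 2.66, 39.7% ± 1.17 and 51.8% ± 1.48 (SD, n = 10) of the hyPBase-centrip insertions. Within either helper, the libraries' ranges in neighbouring stretches did not overlap. For comparison, 1916 protein-coding and lncRNA genes of at least 200 kb were cut the same way into whole 5 kb bins. Their median share was 43.3%, 43.9%, 43.9% and 42.7%. The medians had no such slope, but the slopes of single genes were not compared. Cut in this way PVT1 had 23.2% in its 5′ stretch, at percentile 10.1 of these genes, and 49.9% in its 3′ stretch, at percentile 79.2.

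**Figure D3:**
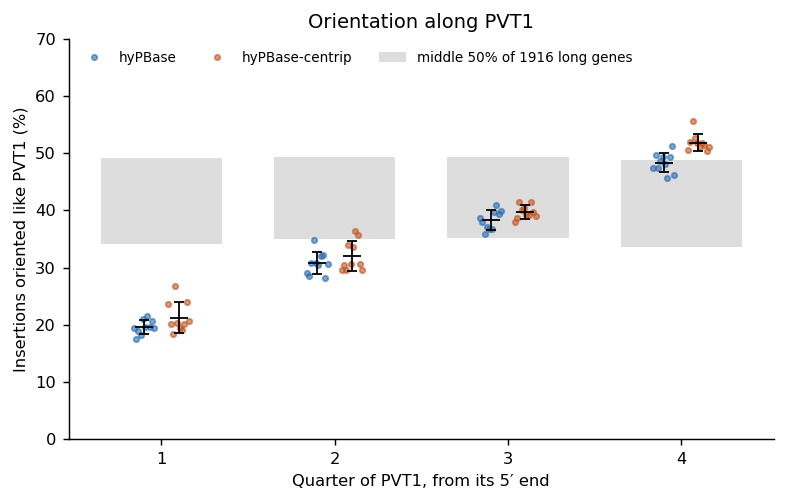
Share of insertions that point the way PVT1 is transcribed (%) in 4 stretches of equal length from its 5′ end, with 1 point for each library and the mean and SD of 10 libraries for each helper, and, in gray, the middle 50% of 1916 genes of at least 200 kb. The share climbs from about 20% in the 5′ stretch to about 50% in the 3′ stretch with both helpers.

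Bin by bin, plus and minus insertions were compared with edgeR's quasi-likelihood test with the library as a block. Over all 69202 bins tested, 38% were called higher in the plus and 38.5% higher in the minus orientation at a Benjamini-Hochberg adjusted p below 0.05, so a call alone says little. In the window, 55 of the 181 bins tested were higher in plus and 79 higher in minus. In PVT1, 26 of the 37 bins tested were higher in minus and 5 higher in plus, with a median log2 ratio of plus to minus of -0.83 against -0.01 over all bins.

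The bins of PVT1 with the smallest p were chr8:127900001-127910000, with 3.54% of 1187 insertions in plus and a log2 ratio of -4.69 ± 0.128 (SE), chr8:128040001-128050000, with 28.7% of 4839 and a log2 ratio of -1.31 ± 0.0411 (SE), and chr8:127890001-127900000, with 12.0% of 1295 and a log2 ratio of -2.85 ± 0.0961 (SE). Their adjusted p from edgeR's quasi-likelihood test were 1.95e-126, 7.91e-109 and 2.72e-100. In the plus direction the smallest p all lay in the distal group, at chr8:129690001-129700000 with 78.9% of 6984 insertions in plus, chr8:129540001-129550000 with 87.5% of 1381 and chr8:129680001-129690000 with 62.5% of 7715. Only 1.36% of tested bins in the genome had a ratio at or below that of the first PVT1 bin, whereas the densest bin of the window, chr8:129570001-129580000, was even, at 49.3% plus.

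**Figure D4:**
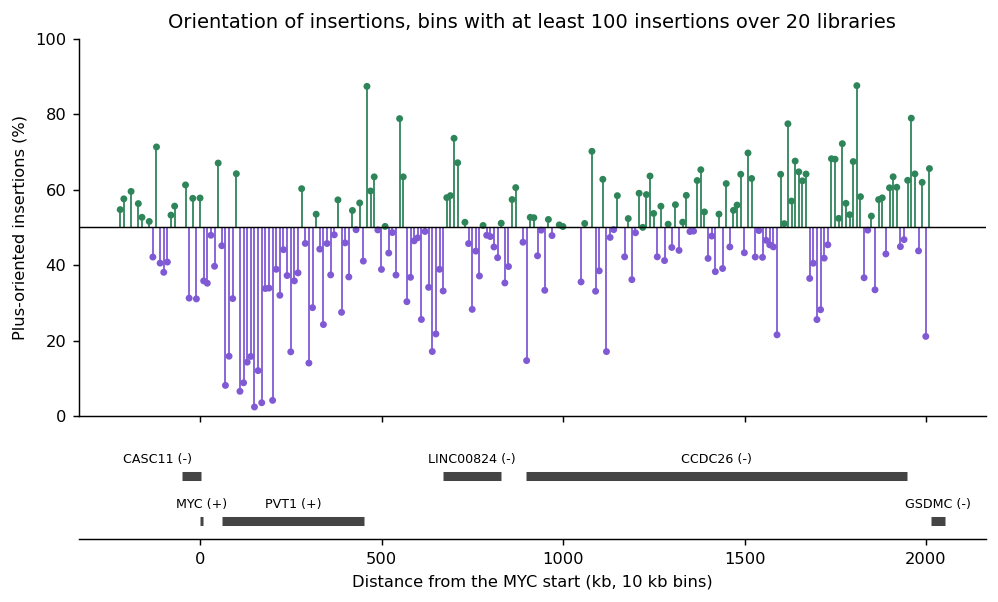
Percentage of insertions in the plus orientation in 10 kb bins with at least 100 insertions over the 20 libraries, against distance from the MYC start in kb, drawn as a point with a line to 50%, with genes below. Bins of the 5′ part of PVT1 reach down to 2.41%, while bins around 2000 kb lie mostly above 50%.

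For MYC the orientation was less certain. The same-strand share was 41.3% ± 16.1 (SD, n = 10) under hyPBase, 45.8% ± 6.33 (SD, n = 10) under hyPBase-centrip, and it ran from 14.3% to 72.4% and from 37.0% to 56.0% in single libraries. It was below 50% in 8 and 7 of 10 libraries, and the exact two-sided sign-flip permutation test gave p = 0.125 and p = 0.0703. The fit over all genes, which weighs libraries by their counts and pools both helpers, gave a log2 ratio of same to opposite strand of -0.32 ± 0.115 (SE) and an edgeR quasi-likelihood adjusted p of 0.00679. CASC11, on the other strand, overlaps the 5′ part of MYC, and within 1 kb of the MYC start 76.9% of 268 insertions were in plus.

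In the same fit, 17.1% of 20309 genes were called higher on their own strand and 65.6% higher on the opposite one. All 12 window genes that could be tested were called, 4 of them higher on their own strand and 8 on the opposite. PVT1 had a log2 ratio of -0.81 ± 0.0176 (SE), CCDC26 one of -0.07 ± 0.0135 (SE), GSDMC one of -1.41 ± 0.185 (SE) and ENSG00000285108 one of -0.91 ± 0.0252 (SE). LINC02912, which points against PVT1, had a log2 ratio of 0.38 ± 0.0852 (SE). The median over all genes tested was -0.57. For overlapping genes the same insertions enter both values.

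Between the helpers, no difference in density passed the test in the domain as a whole. The enrichment of the window differed by -0.0752 (hyPBase-centrip minus hyPBase), less than the SD within either helper, with p = 0.301 in a two-sided permutation test over libraries. Over 230 bins the log2 enrichments of the helpers had a Pearson r of 0.990, a description, since neighbouring bins share libraries and chromatin. In edgeR's quasi-likelihood fit with TMM scaling, 1.06% of the 69202 bins tested in the genome were called at an adjusted p below 0.05. Of the 181 window bins tested, 0 were called. An unadjusted p below 0.05 was found in 21 of these 181 bins and in 8341 of the 69202. Log2 ratios of hyPBase-centrip to hyPBase in the window bins ran from -0.39 to 0.50, with a median of -0.01. DESeq2 called 507 of the 69202 bins and 2 of the 181 window bins, chr8:129570001-129580000 and chr8:129580001-129590000. Their adjusted p were 0.0218 and 0.0416 in DESeq2 (edgeR quasi-likelihood 0.0708 and 0.0544). Both were lower with hyPBase-centrip, at DESeq2 log2 ratios of -0.14 ± 0.0401 and -0.17 ± 0.0542 (SE). Both were also called, at 0.00787 and 0.0234 by edgeR's quasi-likelihood test, when hyPBase-centrip replicate 3, the smallest library of its helper, was left out. That fit called 707 of 68843 bins in the genome.

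Among genes, 2.12% of 20309 were called between helpers, and none of the 12 window genes tested (DESeq2 called 0 as well, and 297 of the 20309). An unadjusted p below 0.05 in edgeR's quasi-likelihood test was found in 1 of the 12 and in 2950 of the 20309. MYC had a log2 ratio of -0.14 ± 0.111 (SE) and an edgeR quasi-likelihood adjusted p of 0.607, and PVT1 of -0.01 ± 0.0260 (SE) and 0.954. CCDC26 came closest, at -0.06 ± 0.0217 (SE) and 0.0932. The fourth of CCDC26 nearest to its 5′ end, which holds the stretch chr8:129530001-129600000, was at 11.0 ± 0.433 (SD, n = 10) under hyPBase against 10.3 ± 0.468 (SD, n = 10) under hyPBase-centrip, a difference that was not tested on its own. A miss of the threshold does not show that the helpers acted alike.

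**Figure D5:**
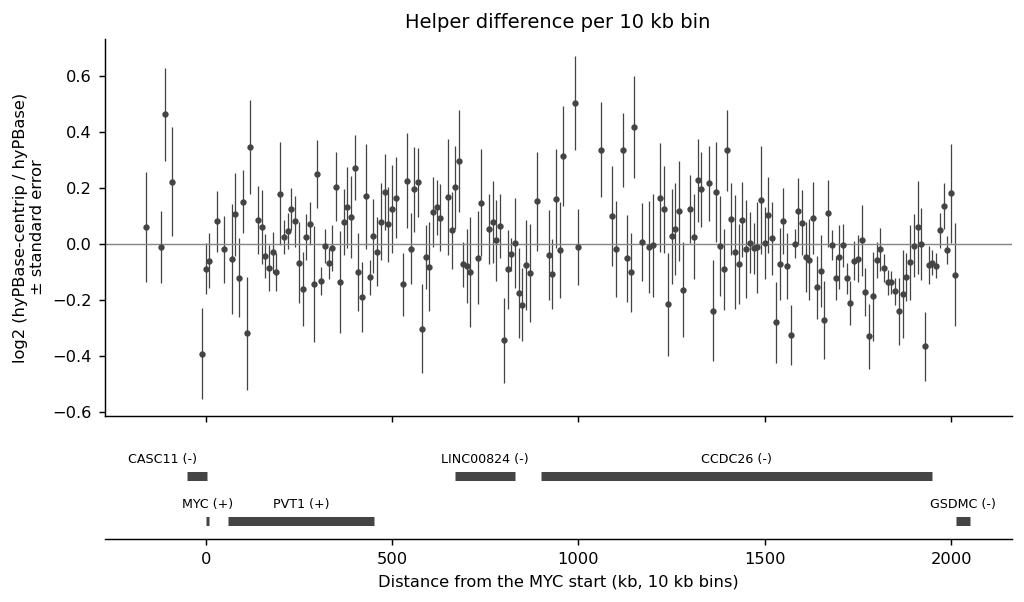
Log2 ratio of hyPBase-centrip to hyPBase insertions in each of the 181 window bins tested (edgeR, point and standard error) against distance from the MYC start in kb, with genes below. Points run from -0.39 to 0.50, on both sides of 0 over PVT1 and mostly below 0 in the distal group near the 5′ end of CCDC26.

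Other genes of the MYC network, whose products dimerise with MAX or MLX at the same kind of DNA site, were read the same way. MAX, the partner of MYC, was at 2.10, at percentile 75.3 of protein-coding genes. Of the MYC paralogs, MYCL was denser than MYC, at 13.5 with 20 TTAA sites, and MYCN was at 0.566 with 28. The MXD repressors MXD1, MXI1, MXD3 and MXD4 stood at 4.42, 3.01, 4.29 and 2.07, and MNT and MGA, which also pair with MAX, at 0.658 and 1.70. In the MLX branch, MLX, MLXIP and MLXIPL were at 5.59, 4.70 and 1.39. MYCL lay above MYC with both helpers. MLX lay above it in the pooled value, but in the hyPBase libraries it was at 5.25 ± 1.80 (SD, n = 10) and MYC at 5.43 ± 1.18 (SD, n = 10), so that their order is within the spread between libraries.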

How the data were processed

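The authors deposited a list of insertions for each library, with the raw read count, orientation and barcode of every insertion. Per the labels, cDNA was primed with oligo(dT), and the submitters' processing notes name Trimmomatic, BWA, SAMtools and hg38, with roles, versions and filters not given in the sources used here. Each line counted as 1 insertion whatever its reads. Insertions and TTAA sites of hg38 were counted over 10 kb bins and GENCODE v44 genes with Python 3.11.15 and scipy 1.17.1. Bins and genes were tested where 10 libraries or more had at least 10 insertions, with edgeR 4.0.16 (quasi-likelihood, TMM, Benjamini-Hochberg), with DESeq2 1.42.0 as the alternative, in R 4.3.3. Single values were compared by permutation with 100000 resamples or exact sign flips. The code was tested on simulated data. The fits ran over the whole genome. Members, gene lists and the rule for named genes (MYC, PVT1, window genes, the MYC network, the 5 densest and emptiest bins, the 3 smallest p in each direction, the 5 fullest sites) were chosen with earlier results of these data known. Alternatives used at least 2 reads, collapsed barcodes, other filters, bins and references. Of the lymphoid genes of the cell line check, 1 is not reported here.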

Additional observations from a re-analysis of the deposited data

Results flagged for a closer look

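The same-strand share of PVT1 differed between the helpers. It was 1.59 percentage points higher with hyPBase-centrip (37.2% against 35.6%), with p = 0.0047 in a two-sided permutation test over 10 libraries of each helper. Over protein-coding genes the share was also higher with hyPBase-centrip, by 1.28 points. After the share over protein-coding genes was subtracted in each library, an alternative added after the data were seen, the difference for PVT1 was 0.307 points and p = 0.553.

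The 2 libraries without a group were outside every comparison, and insertions in the domain appeared in them as well. Their enrichments of the window were 3.81, from 6787 insertions, and 3.71, from 5150 insertions. Both values lie below the lowest of the 20 libraries, 4.15.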

How the results depend on the processing

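Counting at least 2 reads moved the enrichment over 20 libraries from 4.40 to 4.67 for the window and from 8.68 to 9.80 for PVT1, and turned the difference between helpers over the window from -0.0752 to 0.0374 (p = 0.750). Collapsing barcodes moved the window to 3.19, PVT1 to 5.30 and CCDC26 to 3.17. With chromosome 8 as the reference the window was at 4.83, PVT1 at 9.53, the stretch from PVT1 to CCDC26 at 2.71 and CCDC26 at 4.60. The MYC same-strand share passed the threshold with barcodes collapsed, at 40.6% in hyPBase (exact p = 0.0371) and 41.7% in hyPBase-centrip (exact p = 0.00391), and with at least 2 reads at 38.7% in hyPBase-centrip (exact p = 0.0352). The helper difference in the PVT1 share after subtraction of the share over protein-coding genes was 0.307.

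Called window bins between helpers numbered 0 of 181, against 731 of 69202 bins over the genome. DESeq2 called 2 of 181, against 507 of 69202. With at least 2 reads 1 of 147 was called, against 523 of 41029, and in 20 kb bins 2 of 109, against 598 of 68148. Without hyPBase-centrip replicate 3, a fit added after the data were seen, 2 of 181 were called, against 707 of 68843. Over the genome, 731 bins became 284 with any bin of at least 1 insertion kept, and 430 genes became 252 with that filter, 686 with a term for library size and 286 with at least 2 reads. Called orientation bins, 52917, numbered 23508 with at least 20 insertions and 31880 with at least 2 reads, of 28314 and 41029 tested. The densest stretches, 24, numbered 11 at the 99th percentile and 41 in 5 kb bins. The cause of these changes was not tested beyond the number of bins and insertions kept.

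The replicate block gave 654 bins and 411 genes called between helpers, none in the window. Libraries with the same number did not deviate together over 69202 bins (r from -0.0236 to 0.0315, and 2 of 10 correlated best with their own number). No pairing by number was seen, which does not exclude one. Depth limits MYC, which rests on 14 to 48 insertions in a library.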

Other observations

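In the libraries that the labels put in no group, with 2379183 and 1853156 insertions, MYC was at 3.86 and 5.41, PVT1 at 7.17 and 6.79 and CCDC26 at 3.71 and 3.77 times the genome mean. The same-strand share of PVT1 in them was 35.7% and 40.6%.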
